A study of Mus musculus with 48 samples.

Results

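Angpt1, Angpt2, Tek, Tie1, Vegfa, Vegfb, Flt1, Kdr, Pgf and Apold1, genes of the angiopoietin and VEGF (vascular endothelial growth factor) systems, were described in mouse cardiomyocytes after a volume overload operation. These 10 genes were chosen by name, with 2 of them, Angpt1 and Apold1, known from these same libraries to differ after the operation, and all 10 were found by symbol among the 30743 gene rows. The values of Angpt1 and Apold1 after ACF therefore chose them and are given as a description.

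Angiopoietins are secreted ligands of the endothelial receptor Tie2, the product of Tek. Angiopoietin 1 activates Tie2 and keeps vessels quiescent, while angiopoietin 2 acts on the same receptor as a context-dependent antagonist or weak agonist. VEGF-A drives endothelial growth and permeability through VEGF receptor 2 (Kdr), and VEGF receptor 1 (Flt1) binds VEGF-A tightly with little signalling. Cardiomyocytes are a known source of VEGF-A and VEGF-B in the heart, whereas the receptors are made mainly by endothelial cells.

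RNA of isolated heart cells was sequenced in 48 libraries from C57BL/6J (C57) and C3H/HeN (C3H) mice and from mice in which the mitochondrial genomes of these strains had been exchanged (mitochondrial-nuclear exchange, MNX). In set A, 24 libraries whose titles name the surgery, each of the title groups C57_wt, C3H_wt, C57_MNX and C3H_MNX had 3 sham and 3 ACF libraries. In set B, 24 libraries whose titles carry no surgery word and whose treatment label is sham, the groups were C57_WT, C3H_WT, C57n-C3Hmt (C57 nucleus, C3H mitochondria) and C3Hn-C57mt (the reverse), with 6 libraries each. All cells were taken on day 3, and ACF commonly stands for aortocaval fistula, a shunt that overloads the heart with volume.

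The wild-type groups carried the label of their own strain. In set A the C3H_MNX libraries had the genotype label C57n:C3Hmt and the C57_MNX libraries the label C3Hn:C57mt, so that the first word of the title and the labelled nucleus disagree. An earlier account of these data found that the nuclear expression of these libraries follows the title, and they are called by their title here. The labels give no age and do not say that each library is an animal of its own, so the p-values cover the spread over these libraries, which may be technical.

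Library totals were 15.89 to 20.77 M (mega) counts in set A and 15.97 to 26.09 M in set B. The labelled cell type was present in every library: Myh6, the main adult cardiac myosin, had 12.25 to 15.42 log2 CPM (CPM, counts per mega count of the library). Endothelial RNA was present as well. Of 13 endothelial markers none was at 0 in any library, and their summed level was 368 to 1338 CPM in set A sham, 398 to 1446 CPM in set A ACF and 304 to 784 CPM in set B libraries. Since these are bulk samples, fewer cells of a type and less RNA per cell cannot be told apart. Library 489 (C57_wt ACF) stood apart, with a mean log2 CPM of 9.33 over 10 cardiomyocyte markers and of 13.79 over 3 erythrocyte markers, against at least 11.53 and at most 5.75 in the other set A ACF libraries. Library 6756 (C3H_MNX ACF) and library 6763 (C57_MNX sham) followed it in the mean of the endothelial markers (5.73 in 489, 5.49 in 6756 and 5.55 in 6763). Results that these libraries move are given with and without 489 and 6756. Sham library 6763 stayed in those fits, so they leave out such libraries on the ACF side alone.

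The promoters of Apold1, Tek and Tie1 are shown because the strain comparison turns on Apold1, Tie1 and the ratio of Tie1 to Tek. They come from a single reference build, so they do not compare the C3H and C57 sequences. Each sequence covers 250 bases before and 50 bases after the RefSeq start, 5′ to 3′ on the gene's strand, from build GRCm38.p6. Capitals mark GGAA, or TTCC on the other strand, the core that ETS transcription factors of endothelial cells bind. Apold1 lies at chr6:134981751-134982050 on the plus strand, Tek at chr4:94739039-94739338 on the plus strand and Tie1 at chr4:118489800-118490099 on the minus strand.
Apold1: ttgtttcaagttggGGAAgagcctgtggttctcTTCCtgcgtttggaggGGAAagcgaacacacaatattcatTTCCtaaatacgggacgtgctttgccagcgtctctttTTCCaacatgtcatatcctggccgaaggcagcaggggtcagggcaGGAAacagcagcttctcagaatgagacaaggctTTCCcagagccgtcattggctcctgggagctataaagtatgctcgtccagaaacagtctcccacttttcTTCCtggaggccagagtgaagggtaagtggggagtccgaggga
Tek: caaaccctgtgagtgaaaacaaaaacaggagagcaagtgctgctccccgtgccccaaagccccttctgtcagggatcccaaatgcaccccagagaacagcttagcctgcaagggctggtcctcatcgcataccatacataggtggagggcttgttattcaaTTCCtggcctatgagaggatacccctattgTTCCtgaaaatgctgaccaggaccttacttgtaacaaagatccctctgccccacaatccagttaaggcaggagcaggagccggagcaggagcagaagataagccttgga
Tie1: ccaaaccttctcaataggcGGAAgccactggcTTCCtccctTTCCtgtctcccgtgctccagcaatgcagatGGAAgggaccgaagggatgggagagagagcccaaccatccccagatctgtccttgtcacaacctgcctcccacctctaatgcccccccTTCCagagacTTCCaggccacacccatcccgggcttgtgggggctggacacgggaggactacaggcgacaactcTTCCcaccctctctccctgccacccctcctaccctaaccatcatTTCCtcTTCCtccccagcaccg

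Tie1 held the core 9 times, Apold1 8 times and Tek 2 times. The median of 32851 RefSeq mouse promoters of that length was 3, and 96.0% of them held it, so its presence alone does not set these genes apart. Apold1 also held 1 ACGTG, the hypoxia response core, at position 88 from the 5′ end, a motif in 19.6% of all promoters. It held 1 serum response element frame (CC and GG with 6 bases between them) at position 198, which 73.3% of promoters share. Neither TGANTCA (AP-1, in 7.81% of promoters) nor TGACGTCA (CRE, in 1.79%) occurred in the Apold1, Tek or Tie1 window, on either strand. Flt1 held 1 TGACGTCA, at position 170. Overlapping matches were counted, and no binding was measured here.

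Per kilobase of exon, the VEGF ligand genes Vegfb and Vegfa were the most abundant members. Vegfb had a mean level of 6.96 ± 0.18 (SD, n = 24) and Vegfa of 6.03 ± 0.33 (SD, n = 24) log2 CPM per kilobase in set B. Kdr followed at 3.94, then Tie1 at 3.02, Angpt1 at 2.77, Apold1 at 2.66, Tek at 2.33 and Flt1 at 1.66. Pgf, the placental growth factor gene, was at -0.48 and Angpt2 at -1.28. Neighbours in that order overlapped in their library ranges except Vegfa and Kdr, whose ranges were 0.36 apart, and Flt1 and Pgf, whose ranges were 0.58 apart. Lengths come from a later annotation than the one behind the counts, so levels per kilobase are approximate.

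In set A sham libraries the order was Vegfb (6.07), Vegfa (6.03), Kdr (4.94), Tie1 (3.50), Flt1 (3.32), Tek (3.32), Angpt1 (2.97), Apold1 (1.8), Pgf (-0.76) and Angpt2 (-1.11), in log2 CPM per kilobase. There only Apold1 and Pgf had neighbouring ranges that did not overlap. After ACF the places of Apold1 (2.74) and Angpt1 (2.06) were exchanged, and so were those of Vegfa (6.38) and Vegfb (6.00). Angpt2 and Pgf rest on few reads, 10 to 60 and 7 to 92 expected counts per library, against 2258 to 9360 for Vegfa.

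**Figure D1:**
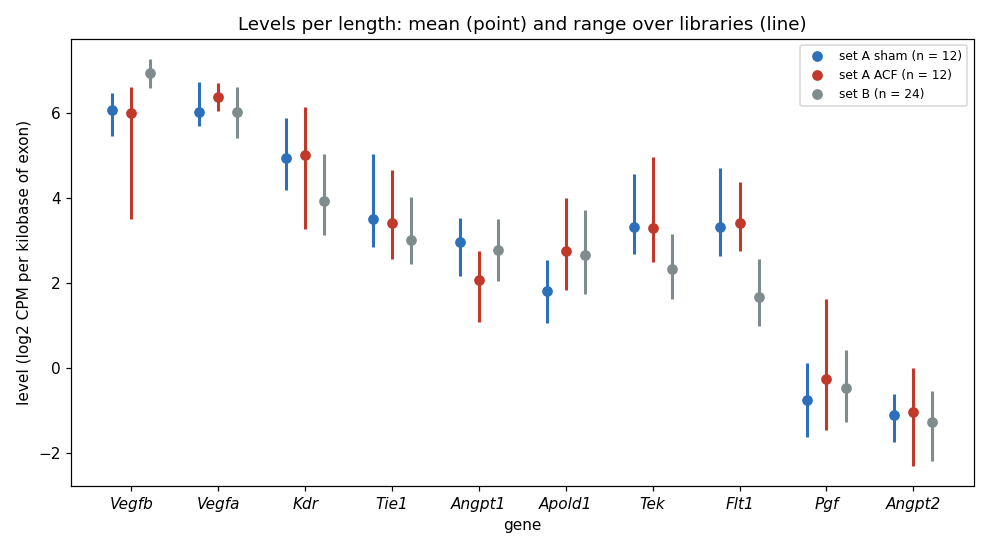
Level of each gene per kilobase of exon in log2 CPM (vertical axis) by gene, with the mean as a point and the range over libraries as a line, for 12 set A sham, 12 set A ACF and 24 set B libraries. Vegfb and Vegfa lie highest and Angpt2 and Pgf lowest in each set, and the low Vegfb value after ACF is library 489.

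Angpt1, the agonist ligand of Tie2, was lower in ACF than in sham libraries of every title group. In C57_wt it stood at 5.60, 5.49 and 4.98 log2 CPM in sham and at 4.35, 3.16 and 4.76 in ACF libraries, and in C3H_wt at 5.31, 4.85 and 4.72 in sham and 3.68, 3.87 and 3.32 in ACF libraries. Every wild-type ACF library lay below every sham library of its strain. The lowest value, 3.16, belonged to library 489. In C3H_MNX the sham libraries had 4.91, 4.86 and 4.96 and the ACF libraries 4.14, 4.72 and 4.48, again without overlap. In C57_MNX sham libraries had 5.23, 5.61 and 4.26 and ACF libraries 4.83, 4.26 and 4.27, so the groups overlapped there through sham library 6763. In all, 10 of 12 ACF libraries lay below every sham library of their title group.

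The log2 difference of Angpt1, ACF minus sham, was -1.14 (SE 0.32) in C57_wt, -1.35 (SE 0.33) in C3H_wt, -0.66 (SE 0.32) in C57_MNX and -0.44 (SE 0.32) in C3H_MNX. Averaged over the 4 title groups it was -0.90 (SE 0.16), and without libraries 489 and 6756 it was -0.82 (SE 0.14). With the endothelial marker mean of each library as a covariate it was -0.85 (SE 0.13). Pericyte and smooth muscle markers, of cells that also make angiopoietin 1, were measured alongside: 5 of 8 were higher after ACF, with a median of 0.14, and their summed level was 633 to 958 CPM in sham and 237 to 1092 CPM in ACF libraries. Their medians by title group were -0.04 in C57_wt, -0.45 in C3H_wt, -0.26 in C57_MNX and 0.63 in C3H_MNX. In that order 4, 2, 3 and 8 of 8 were higher. In C3H_wt their summed level was 916 to 958 CPM in sham and 695 to 726 CPM in ACF libraries. None of these 8 markers was at 0 in any library. The part of these cells in the Angpt1 difference was not tested.

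Whether the exchange of mitochondria went with a different Angpt1 response was asked of the difference between responses, which did not choose the gene. The response was smaller in size in the MNX than in the wt titles by 0.70 (SE 0.32) on the log2 scale, which edgeR's quasi-likelihood test did not call (adjusted p = 1). Without libraries 489 and 6756 the difference was 0.53 (SE 0.28). Between C3H and C57 titles the Angpt1 responses differed by 0.01 (SE 0.33).

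Angpt2, the angiopoietin that endothelial cells store and release, did not separate the surgeries. Its level ran from 0.09 to 1.21 log2 CPM in the 12 set A sham and from -0.47 to 1.81 in the 12 ACF libraries, and its mean log2 difference was 0.18 (SE 0.25). The Angpt2 to Angpt1 ratio within a library had a mean log2 value of -4.34 ± 0.53 (SD, n = 12) in sham and -3.37 ± 0.93 (SD, n = 12) in ACF libraries. Without library 489, which had the highest ratio (-1.73), the ACF mean was -3.52 ± 0.81 (SD, n = 11). The ratio was below 0 in each of the 48 libraries, so Angpt1 had more counts than Angpt2 throughout, without correction for length.

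Apold1 encodes an early response protein of endothelial cells. In C57_wt its sham libraries had 3.42, 2.88 and 3.23 log2 CPM and its ACF libraries 3.95, 4.09 and 4.93. In C3H_MNX the sham libraries had 3.79, 4.33 and 4.38 and the ACF libraries 5.69, 5.48 and 5.83, the highest of set A. Both groups separated without overlap. In C57_MNX sham libraries stood at 3.66, 3.60 and 3.81 and ACF libraries at 4.38, 4.09 and 4.12, also apart. In C3H_wt the values were 3.54, 2.98 and 3.98 after sham and 3.68, 3.90 and 4.79 after ACF, and the groups overlapped. As with Angpt1 in the other direction, 10 of 12 ACF libraries lay beyond every sham library of their title group.

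The log2 difference of Apold1 was 1.23 (SE 0.30) in C57_wt, 0.66 (SE 0.29) in C3H_wt, 0.51 (SE 0.30) in C57_MNX and 1.50 (SE 0.29) in C3H_MNX. Its mean was 0.97 (SE 0.15), and 0.98 (SE 0.15) either without libraries 489 and 6756 or with the endothelial covariate. The responses of C3H and C57 titles differed by 0.21 (SE 0.29) and those of MNX and wt titles by 0.06 (SE 0.29), neither called by edgeR (adjusted p = 1 for each).

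**Figure D2:**
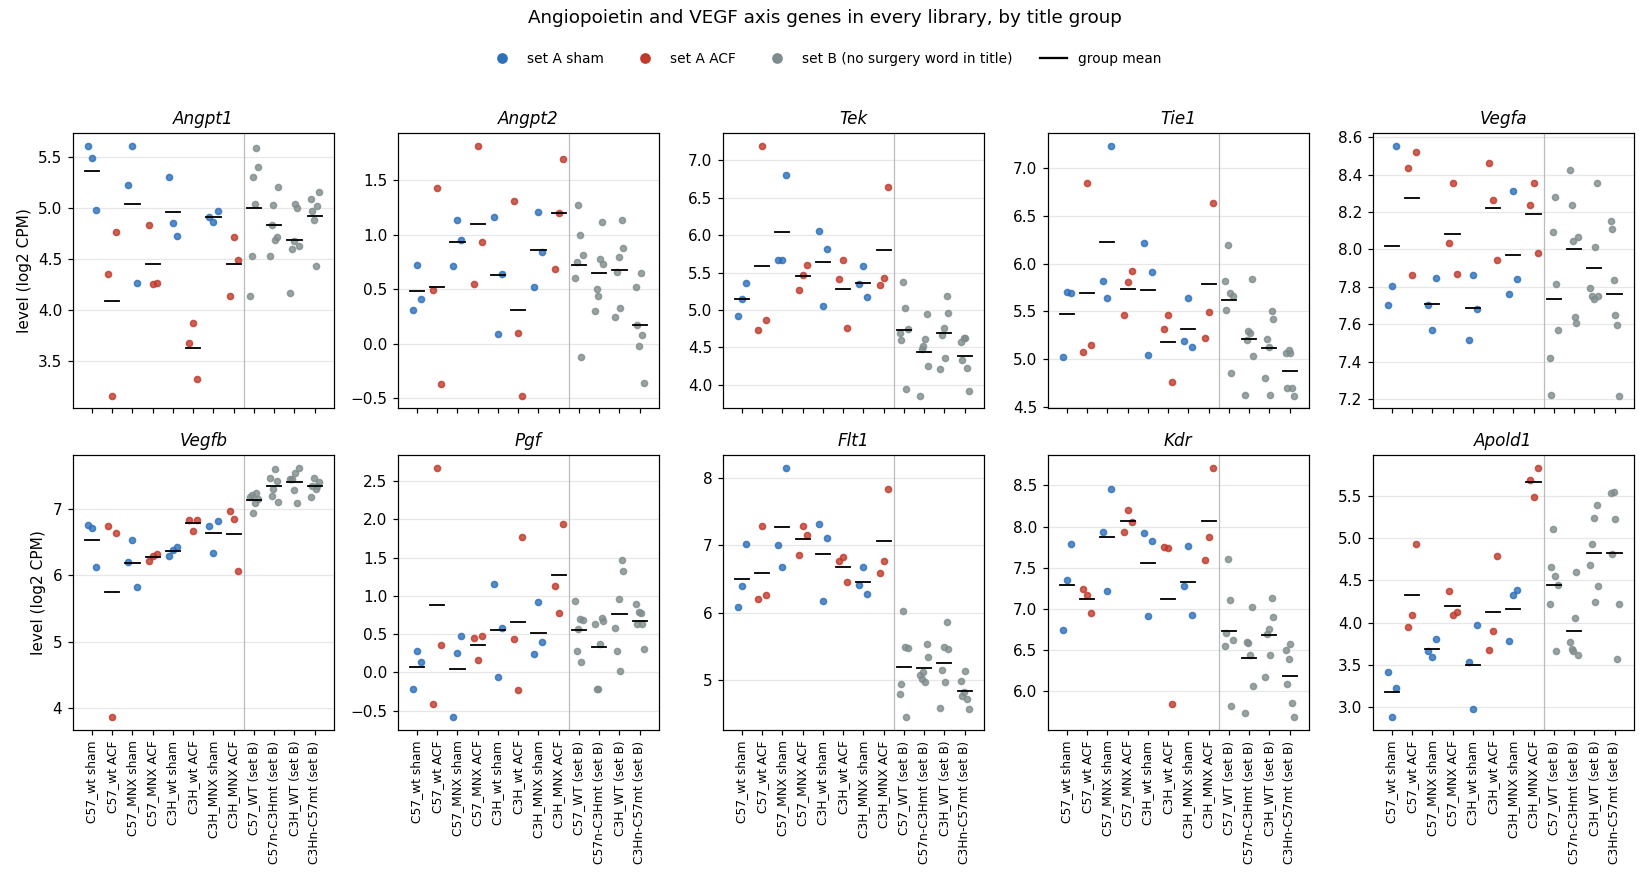
Level of each gene in every library in log2 CPM (vertical axis) by title group and surgery, with points for libraries (blue for set A sham, red for set A ACF, grey for set B) and lines for group means. Angpt1 is lower and Apold1 higher in the ACF libraries, with 10 of 12 libraries beyond the sham range of their title group for each gene.

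Among the VEGF ligands, Vegfa and Pgf had positive ACF minus sham differences in each title group. Vegfa libraries ran from 7.52 to 8.55 log2 CPM (median 7.78) in set A sham and from 7.86 to 8.52 (median 8.25) in set A ACF. The sham and ACF ranges overlapped, with the highest value in a C57_wt sham library, while 7 of 12 ACF libraries lay above every sham library of their title group. The differences were 0.24, 0.54, 0.38 and 0.21 in C57_wt, C3H_wt, C57_MNX and C3H_MNX, with a mean of 0.35 (SE 0.12) and of 0.41 (SE 0.11) without libraries 489 and 6756. Gene-level counts do not separate the splice isoforms of Vegfa, nor the soluble from the membrane form of Flt1.

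The values of Vegfb and Pgf, whose proteins bind VEGF receptor 1, moved when libraries were left out. Vegfb had a mean difference of 0.04 (SE 0.21), of 0.16 (SE 0.10) without library 489 alone and of 0.22 (SE 0.09) without libraries 489 and 6756. Library 489 held it at 3.85 log2 CPM against 6.07 to 6.97 in the other ACF libraries. Pgf had differences of 1.55 (SE 0.67) in C57_wt, 0.27 (SE 0.65) in C3H_wt, 0.26 (SE 0.71) in C57_MNX and 0.86 (SE 0.65) in C3H_MNX. Its mean of 0.74 (SE 0.34) was 0.33 (SE 0.25) without library 489 and 0.23 (SE 0.25) without both libraries. Library 489 was the highest for Pgf, at 2.68 log2 CPM.

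The receptors differed in direction between title groups. Tek, the Tie2 gene, had ACF minus sham differences of 0.98 in C57_wt, -0.37 in C3H_wt, -0.70 in C57_MNX and 0.58 in C3H_MNX (SE 0.53 each). Tie1, the co-receptor without a ligand of its own among the angiopoietins, had 0.48, -0.60, -0.68 and 0.59 (SE 0.49 in C57_wt and 0.50 in the others, in the same order). The median difference of the endothelial markers had the sign of both in each title group, but was near 0 in C3H_wt. It was 0.88 with 10 of 13 higher in C57_wt, -0.06 with 5 of 13 higher in C3H_wt, -0.43 with 0 of 13 higher in C57_MNX and 0.57 with 13 of 13 higher in C3H_MNX. Single libraries weighed on these differences. The marker mean was 5.73 log2 CPM in ACF library 489 of C57_wt, against 3.91 and 3.97 in the others. It was 5.55 in sham library 6763 of C57_MNX (4.48 and 4.44 in the others) and 5.49 in ACF library 6756 of C3H_MNX (4.53 in both others). Flt1 had 0.16, -0.26, -0.33 and 0.72, and Kdr -0.20, -0.27, 0.11 and 0.79. The mean differences were 0.12 (SE 0.26) for Tek, -0.05 (SE 0.25) for Tie1, 0.07 (SE 0.21) for Flt1 and 0.11 (SE 0.22) for Kdr.

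For Tek, 1 ACF library of C57_wt (489, 7.19 log2 CPM against 4.73 and 4.86) and 1 of C3H_MNX (6756, 6.65 against 5.34 and 5.43) had the high ACF values. Of 12 ACF libraries 6 lay below and 2 above every sham library of their title group for Tek, and 2 below and 2 above for Tie1. Relative to the endothelial marker mean, Tek had a mean log2 ratio of 1.10 ± 0.15 (SD, n = 12) in sham and 0.95 ± 0.24 (SD, n = 12) in ACF libraries. Tie1 had 1.24 ± 0.25 and 1.01 ± 0.24 (SD, n = 12 each). Among the sham libraries 6763 of C57_MNX was high too, with 6.80 log2 CPM for Tek against 5.67 and 5.66, and 7.23 for Tie1 against 5.82 and 5.64. Without 489 and 6756, with sham library 6763 still in the fit, the mean differences were -0.35 (SE 0.15) for Tek and -0.41 (SE 0.18) for Tie1, and with the endothelial covariate -0.18 (SE 0.08) and -0.25 (SE 0.08). Without library 6763 alone they were 0.24 (SE 0.26) for Tek and 0.12 (SE 0.23) for Tie1. The signs of both differences thus depended on which of these libraries were in the fit. Kdr was at -0.01 (SE 0.21) and Flt1 at -0.17 (SE 0.17) without 489 and 6756.

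Set against all genes, 2 of the 10 members passed edgeR's threshold (adjusted p under 0.05) for the mean ACF difference, Angpt1 and Apold1, beside 0.275% of 13440 genes tested (0.201% higher and 0.0744% lower). Angpt1 was not counted in 6 of the 24 fits that left out a library (6650, 482, 6692, 6659, 464 or 467). All 10 passed the filter on low counts. Since the rule used this contrast, nothing is read from that count. The median difference of the 10 was 0.11 and that of all genes 0.00. Within single title groups edgeR called 0 members, beside 0% of genes in C57_wt, C3H_wt and C57_MNX and 0.00744% in C3H_MNX. At an unadjusted p under 0.05 there were 2030, 951, 274 and 230 genes in C57_wt, C3H_wt, C57_MNX and C3H_MNX, and DESeq2 called 175, 82, 1 and 3 genes, with 1 member each in C57_wt, C3H_wt and C3H_MNX.

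Members whose ACF and sham libraries did not overlap were Apold1 (higher, beside 4.05% of genes) and Angpt1 (lower, beside 2.92%) in C57_wt. In C3H_wt they were Vegfa and Vegfb (higher, beside 12.9%) and Angpt1 (lower, beside 10.3%). In C57_MNX they were Vegfa and Apold1 (higher, beside 4.46%) and Tek (lower, beside 3.91%), and in C3H_MNX Apold1 (higher, beside 4.9%) and Angpt1 (lower, beside 4.78%). For the differences between responses edgeR called 0 members and 0% of genes, both between C3H and C57 titles and between MNX and wt titles. There 429 and 281 genes had an unadjusted p under 0.05, and DESeq2 called 2 and 0.

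**Figure D3:**
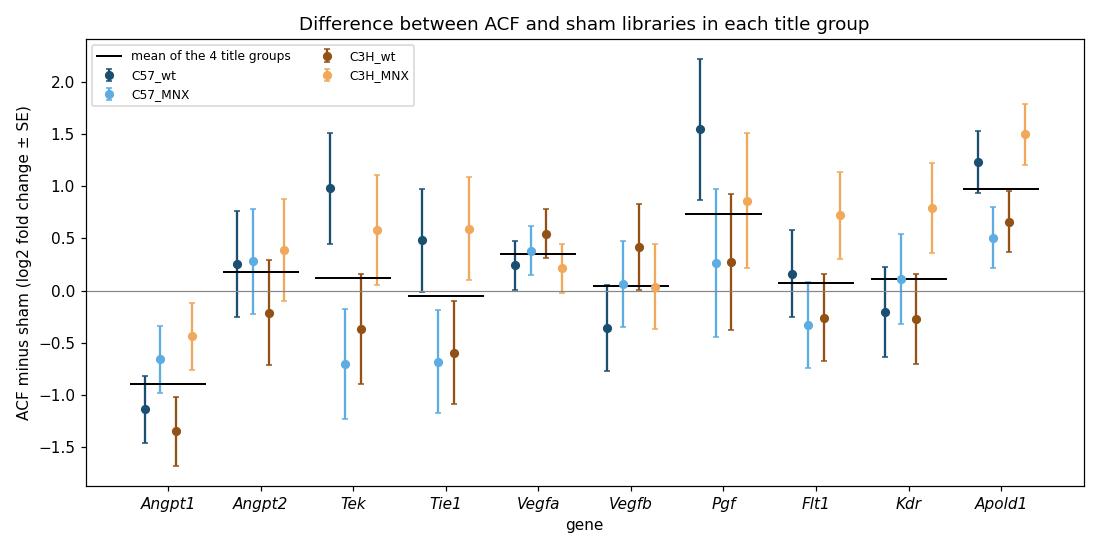
ACF minus sham difference as log2 fold change (vertical axis) for each gene, with points for the 4 title groups, bars for the SE of the fit and a black line for their mean. Angpt1 lies below and Apold1, Vegfa and Pgf above 0 in each title group, while Tek, Tie1, Flt1 and Kdr lie on both sides.

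Other genes of these pathways were counted from a list of 63, of which 60 were tested in set A. For the mean ACF difference edgeR called 2 higher and 0 lower, beside 0.201% higher and 0.0744% lower of 13440 genes tested. The list was drawn up with earlier results of these data known, so its counts and calls are a description. Adamts1, a metalloprotease that VEGF induces in endothelial cells, rose by 0.98 on the log2 scale (SE 0.15). Its adjusted p in edgeR was 0.00971, and it was called whichever library was left out. Its libraries had 4.04 to 5.80 log2 CPM (median 4.66) in sham and 4.74 to 6.55 (median 5.85) in ACF. Thbs1, the thrombospondin 1 gene whose product restrains vessel growth, rose by 2.42 (SE 0.50, edgeR adjusted p = 0.0439), but 20 of the 24 fits that left out a library did not call it. Its value was 1.43 (SE 0.28, edgeR adjusted p = 0.0120) without 489 and 6756, since 489 held 9.35 log2 CPM. The 13 hypoxia genes had 0 calls and a median difference of 0.04.

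Without libraries 489 and 6756 edgeR called 4 higher and 1 lower of the 60, namely Aplnr, Rcan1, Bnip3, Adamts1 and Thbs1. DESeq2 called 4 higher, Nr4a1, Adm, Adamts1 and Thbs1. Over all genes these settings called 344 and 244, against 37 in edgeR with every library. The list's median over the 60 genes was 0.15, beside 0.00 for all genes.

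The strain comparison was independent of the rule. In set B, edgeR called 2 of 10 members between C3H and C57 nuclei, averaged over the mitochondrial backgrounds, beside 35.7% of 13395 genes tested (18.9% higher and 16.8% lower), so the share was not above that of all genes. These were Apold1, higher with a C3H nucleus, and Tie1, lower with a C3H nucleus. All 10 members passed the filter.

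Apold1 ran from 4.25 to 5.39 log2 CPM (median 4.81) in C3H_WT and from 3.57 to 5.55 (median 5.02) in C3Hn-C57mt. It ran from 3.66 to 5.10 (median 4.50) in C57_WT and from 3.62 to 4.60 (median 3.73) in C57n-C3Hmt. The ranges overlapped, with the higher medians in both groups of C3H nucleus. The difference was 0.72 (SE 0.20, edgeR adjusted p = 0.00633), and 0.90 (SE 0.15) with the endothelial marker mean as a covariate. Relative to the mean of the 13 endothelial markers in the same library, Apold1 had a mean log2 ratio of 0.62 ± 0.51 (SD, n = 12) with C3H and -0.16 ± 0.24 (SD, n = 12) with C57 nuclei (2-sided permutation test, p = 2.8e-04, Benjamini-Hochberg adjusted p = 0.0014 over 10 ratio and level tests). The ratio of Apold1 to the markers was chosen after the data were seen. Its p-values in set B are therefore a description, and the adjustment does not cover that choice. In set A this ratio did not pass. C3H minus C57 titles gave 0.46 in sham libraries (exact 2-sided permutation test, p = 0.177, adjusted p = 0.222). After ACF the same comparison gave 0.53 (exact permutation p = 0.290, adjusted p = 0.322), and 0.24 without libraries 489 and 6756.

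Tie1 ran from 4.63 to 5.50 log2 CPM (median 5.17) in C3H_WT and from 4.62 to 5.10 (median 4.88) in C3Hn-C57mt. In C57_WT it ran from 4.86 to 6.20 (median 5.67) and in C57n-C3Hmt from 4.63 to 5.84 (median 5.24). All 4 ranges overlapped. The difference was -0.44 (SE 0.14, edgeR adjusted p = 0.0132). Endothelial markers leaned the same way, with 10 of 13 lower, 1 of them called, and a median of -0.18. With their mean as a covariate Tie1 differed by -0.25 (SE 0.05).

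Titles also carry an unexplained code (an L followed by a digit), and in set B this code ran with the groups. All C57_WT libraries carried L8 and all C3H_WT libraries L3, and L2 was the only code held by both nuclei, with 4 libraries of C57n-C3Hmt and 4 of C3Hn-C57mt. With the code as a covariate Tie1 turned to 0.17 (SE 0.28, edgeR adjusted p = 0.762), while Apold1 stood at 2.08 (SE 0.34). Within L2, where nucleus and mitochondria differ together, Tie1 differed by -0.06 (exact 2-sided permutation test, p = 0.657). Apold1 had 4.81 to 5.55 log2 CPM with C3H and 3.62 to 3.77 with C57 nuclei there, a difference of 1.60 (exact permutation p = 0.0286, the smallest that 4 against 4 allows; adjusted p = 0.0571). The values within L2 were also chosen after the data were seen, so their p-values are a description. Apold1 varied with the code within a group too. Outside L2 it reached down to 3.57 log2 CPM in C3Hn-C57mt and up to 4.60 in C57n-C3Hmt. The level of Tie1 by strain in set B and this code can thus not be told apart. The same holds for the size of the Apold1 difference.

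The ratio of Tie1 to Tek within a library cancels what both receptors share, and it was compared after the values of set B had been seen. Its p-values in set B come from the libraries that chose it, and the adjustment does not cover that choice. They are given as a description. The log2 ratio of Tie1 to Tek was 0.46 ± 0.12 (SD, n = 12) with C3H nuclei, from 0.27 to 0.70, and 0.83 ± 0.13 (SD, n = 12) with C57 nuclei, from 0.66 to 1.13. The strains overlapped in a narrow strip only. The difference was -0.37 (2-sided permutation test, p = 2e-05, the smallest that 100000 resamples give; adjusted p = 2e-04). Within code L2 the ratios ran from 0.37 to 0.49 with C3H and from 0.72 to 0.78 with C57 nuclei, without overlap (difference -0.32, exact permutation p = 0.0286, the smallest possible; adjusted p = 0.0571). Tek alone differed by -0.06 (SE 0.14, edgeR adjusted p = 0.774).

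The ratio was then taken in the libraries of set A, which had not been used to choose it. Sham libraries with C3H titles had a log2 ratio of 0.02 ± 0.11 (SD, n = 6) and those with C57 titles 0.26 ± 0.22 (SD, n = 6), a difference of -0.24 (exact 2-sided permutation test, p = 0.0433, adjusted p = 0.0722). After ACF the difference was -0.25 (exact permutation p = 0.0628, adjusted p = 0.0897). Library 489, at -0.35, was the lowest of the C57 titles. Without libraries 489 and 6756 the difference after ACF was -0.37 (exact permutation p = 0.00794, the smallest that 5 against 5 allows, outside the adjustment). The sign was therefore the same in each set, but after adjustment set A did not pass the threshold.

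**Figure D4:**
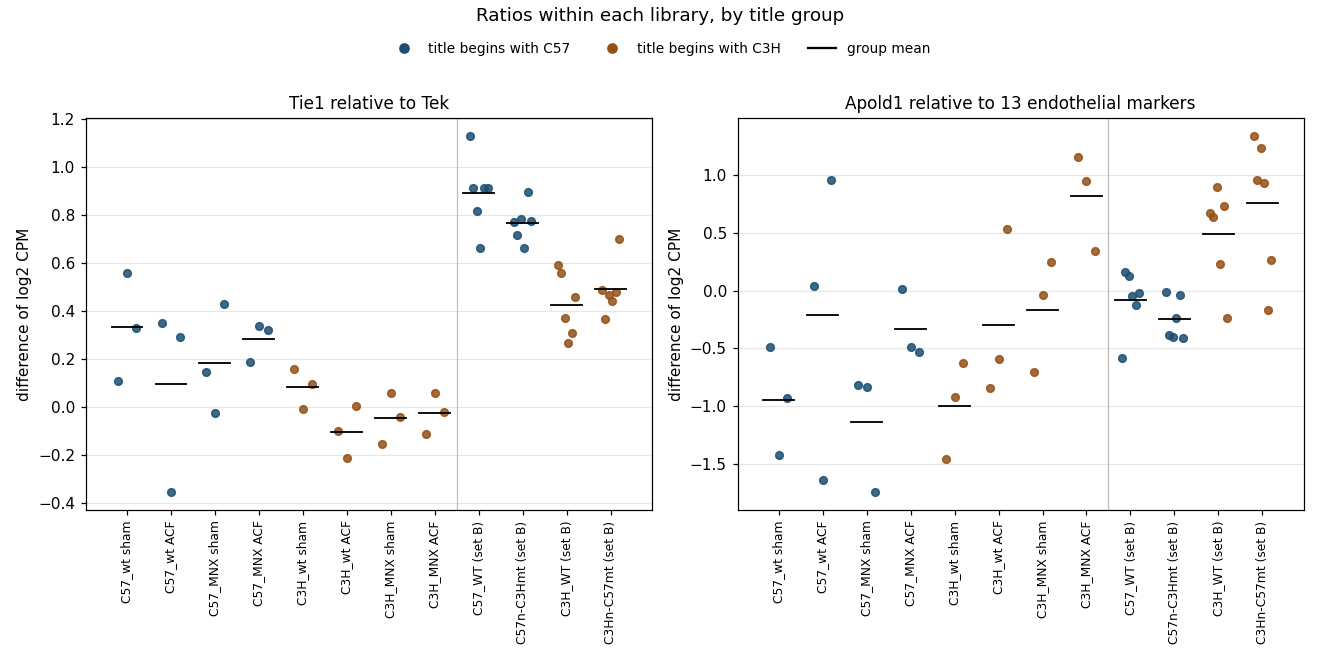
Log2 ratio within each library (vertical axes, difference of log2 CPM) by title group, for Tie1 relative to Tek (left) and for Apold1 relative to the mean of 13 endothelial markers (right), with points for libraries, lines for group means and colour for the strain that the title begins with. In set B the Tie1 to Tek ratio averages 0.46 with C3H and 0.83 with C57 nuclei, and set A lies lower in this ratio.

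In the sham libraries of set A edgeR called 0 of 10 members between C3H and C57 titles, beside 8.39% of genes, 4.46% higher and 3.93% lower (1128 genes called, 2510 at an unadjusted p under 0.05, and 0 members also by DESeq2). Apold1 differed by 0.42 (SE 0.21, edgeR adjusted p = 0.305) and Tie1 by -0.41 (SE 0.35, edgeR adjusted p = 0.636), with the signs they had in set B. Sham library 6763 of C57_MNX, at 7.23 log2 CPM for Tie1 against 5.82 and 5.64 in its group, enlarged the Tie1 difference. The Tie1 medians were 5.42 with C3H and 5.70 with C57 titles, with overlapping ranges, so little is read from the shared sign of Tie1. The other members differed by -0.33 (Angpt1) to 0.52 (Pgf). Exchanged and wild-type titles did not differ by the test in any of the 10, beside 0% of genes in edgeR (154 at an unadjusted p under 0.05, and 2 called by DESeq2). Apold1 had the smallest unadjusted p of the members there, with 0.57 (SE 0.21, adjusted p = 1), while 13 of 13 endothelial markers were also higher in the exchanged libraries, with a median of 0.27. Their part in the Apold1 difference was not tested.

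**Figure D5:**
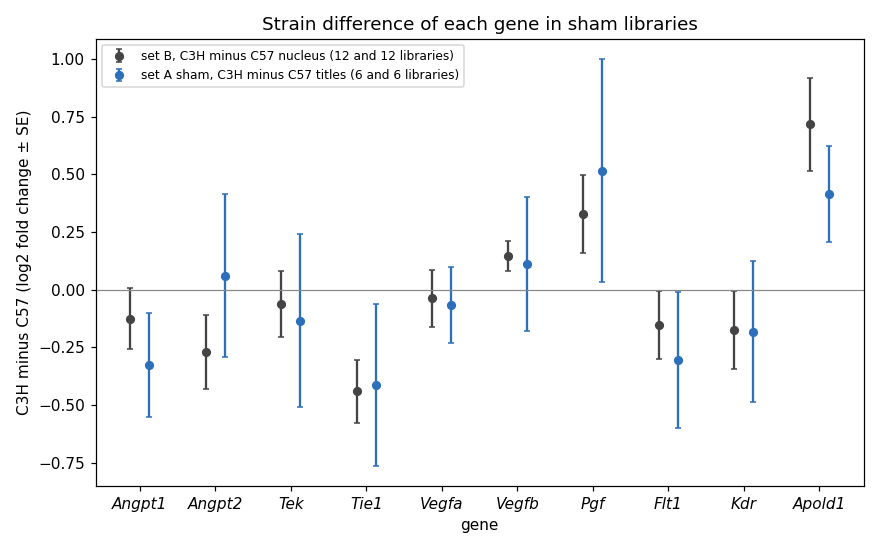
C3H minus C57 difference as log2 fold change (vertical axis) for each gene, with points for the fit and bars for its SE, in set B (12 and 12 libraries) and in the sham libraries of set A (6 and 6). Apold1 lies above and Tie1 below 0 in both sets, with wider bars in set A. The Tie1 point of set A is enlarged by sham library 6763 of C57_MNX.

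The remaining members did not pass the test in the nuclear comparison of set B. Vegfb differed by 0.15 (SE 0.07, edgeR adjusted p = 0.0902), and by 0.18 (edgeR adjusted p = 0.0263 and 0.0296) without library 23 or without library 7. Its groups had 7.14 ± 0.11 (C57_WT), 7.35 ± 0.18 (C57n-C3Hmt), 7.41 ± 0.19 (C3H_WT) and 7.35 ± 0.10 (C3Hn-C57mt) log2 CPM (SD, n = 6 each), so C57_WT was the lowest. Pgf differed by 0.33 (SE 0.17, edgeR adjusted p = 0.135), Angpt2 by -0.27 (SE 0.16, adjusted p = 0.201) and Kdr by -0.18 (SE 0.17, adjusted p = 0.450). Pgf passed with the endothelial covariate (0.43, edgeR adjusted p = 0.0212) and with the set A sham libraries added (0.36, edgeR adjusted p = 0.0437). Angpt1, Flt1, Tek and Vegfa differed by -0.13, -0.15, -0.06 and -0.04.

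Among the pathway genes edgeR called 10 higher and 6 lower of 58 with a C3H nucleus in set B, beside 35.7% of all genes tested. Met, the receptor of hepatocyte growth factor, was higher by 1.84 (SE 0.12, edgeR adjusted p = 1.2e-12), and Akt1, a kinase downstream of both receptor families, differed by -0.62 (SE 0.05, edgeR adjusted p = 2.2e-10). Shb, an adaptor of VEGF receptor 2, was higher by 0.57 (SE 0.08, edgeR adjusted p = 1.3e-06). Apln, the tip-cell ligand apelin, differed by -0.72, Egln3, an oxygen-sensing hydroxylase, by 0.58 and Hif3a, a hypoxia-inducible factor subunit, by 1.74 (edgeR adjusted p = 2.8e-06, 1.3e-05 and 7.1e-05).

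With the L code as a covariate Met (1.42), Akt1 (-0.70) and Shb (0.74) were still called, whereas Apln (-0.17), Egln3 (0.53) and Hif3a (-0.04) were not (edgeR adjusted p = 0.653, 0.114 and 0.974). In the sham libraries of set A edgeR called 3 higher and 2 lower of 60, beside 8.39% of all genes tested. Akt1 (-0.66, adjusted p = 3.7e-04) was called whichever library was left out. Met (1.27), Hif3a (1.57), Shb (0.36) and Hif1a (-0.47) were not called in 5, 7, 3 and 2 of the 24 fits that left out a library. These 5 genes were also called in set B, Hif1a at -0.32 (edgeR adjusted p = 0.00611), with 1 sign each over both sets. How many of all genes called in set A sham recurred in this way was not counted, so nothing is read from that recurrence. With the L code as a covariate Met and Akt1 were called in both sets, Shb in set B alone (edgeR adjusted p = 0.0787 in set A sham), Hif3a in set A sham alone, and Hif1a in neither (edgeR adjusted p = 0.0844 in set A sham and 0.286 in set B).

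Between C3H and C57 mitochondria in set B edgeR called 0 of 10 members, beside 0% of genes (549 at an unadjusted p under 0.05, and 1 called by DESeq2). The members' differences ran from -0.34 (Apold1, SE 0.20) to 0.20 (Angpt2, SE 0.16). Vegfb had the smallest unadjusted p, with a difference of 0.14 (SE 0.07, edgeR adjusted p = 0.914).

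Whether the nuclear difference depended on the mitochondria was also asked in set B, and edgeR called 0 members, beside 0% of genes (2188 at an unadjusted p under 0.05, and 331 called by DESeq2, with 0 members among them). The 4 receptors leaned 1 way: Kdr 0.88 (SE 0.34, edgeR adjusted p = 0.191), Tie1 0.69 (SE 0.27, adjusted p = 0.206), Tek 0.65 (SE 0.29, adjusted p = 0.256) and Flt1 0.58 (SE 0.30, adjusted p = 0.324). Here 13 of 13 endothelial, 8 of 8 fibroblast and 8 of 8 macrophage markers were higher, with medians of 0.70, 0.93 and 1.39, and 10 of 10 cardiomyocyte markers were lower, with a median of -0.14. With the endothelial marker mean as a covariate the receptors stood at 0.02 (Kdr), -0.06 (Tie1), -0.12 (Tek) and -0.12 (Flt1). The members' median was 0.53 with 8 of 10 higher, beside -0.01 for all genes. The same contrast equals the sum of both wild-type groups minus the sum of both exchanged groups. Within set B only exchanged libraries carried code L2. Dependence on the mitochondria, the exchange itself and the code can thus not be told apart here.

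Flt1 and Vegfb set the collections of libraries apart. Flt1 had 6.09 to 8.16 log2 CPM in the 12 set A sham libraries and 4.44 to 6.02 in the 24 set B libraries, a gap without overlap that 2.49% of 13116 genes showed in the same direction. Vegfb had 5.82 to 6.83 in set A sham and 6.94 to 7.63 in set B, also without overlap, as 1.69% of genes did. Kdr and Tek were higher in set A sham by 1.01 and 0.99 with overlapping ranges, Apold1 was lower by 0.86, and Vegfa had a mean of 7.85 in each set. The mean of the endothelial markers was 4.45 in set A sham and 4.26 in set B. Of these markers only Pecam1 (6.64 and 5.92) and Cdh5 (7.07 and 6.32) were taken singly, and their gaps were wider. Relative to the marker mean, Flt1 had a log2 ratio of 1.92 to 2.87 in set A sham and of -0.01 to 1.31 in set B. Tek had 0.84 to 1.25 and -0.12 to 0.54, also without overlap. Tie1 had 0.69 to 1.68 and 0.62 to 1.23, with overlap. The sets differ in how titles name surgery, and how they were prepared cannot be told apart from the set.

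The genes whose pattern over the 8 groups of set A was most like that of Angpt1, by Pearson's r of group means among 9253 genes, were D0H4S114 (r = 0.975), Rtn2 (0.968) and Slc26a6 (0.968). For Apold1 the most alike was Tuba1a (0.964), and Casp8 (0.937) was also among its 3 nearest. With Spearman's rho 1 of the 3 remained for Angpt1 and 0 of the 3 for Apold1. The likeness rests on 8 group means of 3 libraries each and is a description.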

How the data were processed

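The deposited table holds expected counts per gene symbol for 48 libraries, not normalized by the authors, and 13.9% of its values were not whole. Per the submitters' processing notes, CASAVA 1.8.2, Bowtie, RSEM 1.2.0 and build mm9 were used. The protocol in the labels instead describes mapping by the sequencing provider, so the route to this table is unclear. RSEM divides reads that several genes share. The file held 0 columns of other samples. Per the labels' protocols, hearts were digested with collagenase, the right ventricle and atria were taken off, and libraries were stranded. Library totals were 15.89 to 26.09 M counts.

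Expected counts were rounded and analysed in R 4.3.3 with edgeR 4.0.16's quasi-likelihood F test (TMM, filterByExpr with the groups, Benjamini-Hochberg adjustment over all genes tested, threshold 0.05). Set A and set B were each fitted as 1 model of group means, with 13440 and 13395 genes. The SE of a log2 difference was taken as its absolute value over the root of F. Levels were computed as log2 CPM (prior count 2). Levels per kilobase use exon unions of a GRCm38 annotation. The tests were checked on simulated counts. Replicate numbers name single libraries and pair none.

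The members, the list of 63 pathway genes and the marker lists were chosen with earlier results of these data known. All members were named, and of the other pathway genes up to 6 past the threshold per comparison, by adjusted p. Genes most like Angpt1 and Apold1 in pattern were the 3 with the highest r. A gene that this rule names is not reported here. The pathway genes named for settings other than the first fit, the ratios, the comparison of set A sham with set B and the values within code L2 were chosen after the data were seen. Ratios were compared by 2-sided permutation tests, exact below 10 libraries a group. The alternatives were DESeq2 1.42.0, edgeR with the size factors of DESeq2, no low-count filter, the L code or the endothelial marker mean as a covariate, each library left out in turn, libraries 489 and 6756 left out, and other choices of libraries in the fit.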

Additional observations from a re-analysis of the deposited data

How the results depend on the processing

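No paired analysis was possible because each replicate number belongs to a single library. Counts of genes past the threshold moved as follows. For the mean ACF difference (37 genes) DESeq2 gave 244, the endothelial covariate 254 and the fit without libraries 489 and 6756 344, and leaving out a library gave 12 to 174. In the order DESeq2, endothelial covariate and without 489 and 6756, the counts were 175, 1 and 1 in C57_wt (0 genes; 0 to 874 with a library left out) and 82, 92 and 192 in C3H_wt (0 genes; 0 to 69). DESeq2 gave 1 in C57_MNX (0 genes). In C3H_MNX (1 gene) it gave 3, the L code 0, the endothelial covariate 2, the fit without 489 and 6756 2, the title group alone 0, and a library left out 0 to 1. For the response of C3H minus C57 titles (0 genes) DESeq2 gave 2, and no filter, the endothelial covariate and the fit without 489 and 6756 1 each, with 0 to 1 when a library was left out. For strain in set A sham (1128 genes) the endothelial covariate gave 2120, the fit without 489 and 6756 2446 and the sham libraries alone 1939, with 897 to 2083 when a library was left out. The exchange in set A sham (0 genes) had 2 by DESeq2. In set B the nuclear count (4776) was 1399 with the L code, the mitochondrial count (0) was 1 by DESeq2, 3 with the L code and 0 to 1 with a library left out, and the count for their interaction (0) was 331 by DESeq2, 2 with the L code and 0 to 422 with a library left out (422 without library 5).

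Among the members, the count for the mean ACF difference (2) was 1 to 2 with a library left out: Angpt1 was not counted without library 6650, 482, 6692, 6659, 464 or 467. It was 3 without libraries 489 and 6756, with Vegfa added. In C57_wt (0) it was 1 by DESeq2 and 0 to 1 with a library left out (1 without 465 or 490). In C3H_wt (0) it was 1 by DESeq2, with the endothelial covariate and without 489 and 6756, and 0 to 1 with a library left out (1 without 489). In C3H_MNX (0) it was 1 by DESeq2. In the nuclear comparison of set B (2) it was 1 with the L code, where Tie1 reversed to 0.17, and the nearest genes by Spearman's rho shared 1 (Angpt1) and 0 (Apold1) of 3. The cause of these moves was not tested. Levels under DESeq2 size factors or a prior count of 0.5 stayed within 1 SD for all 120 group means. Angpt2 and Pgf rest on at most 60 and 92 counts a library, which limits their precision.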
